A study of Mus musculus with 8 samples.

Results

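Of 48 genes encoding nuclear receptors and the coregulators that act with them, 46 were measured in macrophages cultured without or with acetylated low-density lipoprotein (acLDL). The list of genes was given by name, and each gene was followed through the probe set that carries its symbol alone. The 2 others, Nr2e3 and Ncor1, were not analysed here. The cells were macrophages that enter the peritoneal cavity of C57BL/6J mice after injection of thioglycollate, an irritant broth, harvested 5 days after the injection and kept in DMEM medium with fetal bovine serum. One group of 4 arrays came from cells with no added agent (unloaded) and another group of 4 from cells given acLDL, a modified lipoprotein taken up through scavenger receptors that loads macrophages with cholesterol. Dose and time are not settled, since the protocols of the samples name 20 µg/mL acLDL for 3 days while the design text of the series names 50 µg/mL for 2 days. The 4 arrays of a group are described as biological replicates, and which mice gave which culture is not said. Values are log2 expression from Affymetrix arrays, and a level is compared here only with the same gene's level on other arrays.

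Nuclear receptors are transcription factors that bind DNA through a zinc finger domain and, for many of them, a small fat-soluble ligand such as a steroid, retinoid, fatty acid or oxysterol through a second domain. Receptors for retinoic acid, thyroid hormone, vitamin D, fatty acids and oxysterols bind DNA as pairs with a retinoid X receptor (RXR), while steroid receptors pair with themselves. A bound ligand exchanges corepressors, such as NCOR1, for coactivators, such as the p160 proteins NCOA1 to NCOA3, which recruit enzymes that modify histones. In macrophages PPAR gamma and the liver X receptors are known for their part in lipid handling, and the glucocorticoid receptor for restraining inflammatory genes.

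Of the 46 genes 8 changed, a share not above that of all genes, and by at most 1.48-fold. With acLDL 6 rose, namely the retinoic acid receptor gene Rara, the RXR genes Rxra and Rxrb, the orphan receptor gene Nr2f6 and the p160 coactivator genes Ncoa2 and Ncoa3. The fatty acid receptor gene Pparg and the clock-linked receptor gene Rora fell, and 38 genes did not pass in limma at an adjusted p of 0.05. These 8 changed genes are 17.4% of the 46, against a background of 23.3% of all 19938 genes tested (12.9% higher and 10.5% lower). A change of at least 1.5-fold was found in 0 of the 46, against 2.03% of all genes, and 14 of the 46 had an unadjusted limma p under 0.05, where the background was 34.5% of all genes. The median log2 difference was 0.07 over the 46 genes and -0.00311 over all genes tested. The mean log2 level of 7 macrophage markers differed with the condition as well, at 10.44 to 10.56 on unloaded and 10.81 to 10.84 on acLDL arrays. Of the 7, Adgre1, Fcgr1, Itgam and Mertk rose, while Csf1r, Lyz2 and Cd68 did not pass. The part of this shift in the differences of the 46 genes was not tested. In bulk RNA, fewer cells of a type and less RNA per cell cannot be told apart.

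The level of each gene was set against a background. Genes of olfactory receptors, proteins of the nose, served as the measure of background. The 95th percentile of the mean level of 1027 such genes was 6.12 on the log2 scale, and 26 of the 46 genes (56.5%) lay above it, as did 58.4% of all genes tested. All 8 changed genes were among these 26 (30.8%), where the background was 33.5% of 11653 genes above that level (19.6% higher and 13.9% lower). Of the 20 genes not above it, 0 passed in limma, against a background of 8.94% of all genes not above that level. At an unadjusted p under 0.05 there were 4 of the 20, against a background of 18.7%. Rarb, Esr1 and Nr5a1 lay just above, at means over the 8 arrays of 6.15, 6.13 and 6.23, and Esrrg and Nr1i3 just below, at 6.02 and 6.00. The groups did not overlap in 11 of the 46 genes, the 8 that changed and Thra, Nr3c1 and Nr3c2 (background 25.6% of all genes). Among the 26 above background 10 did not overlap, against 36.7% of all genes above that level.

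**Figure D1:**
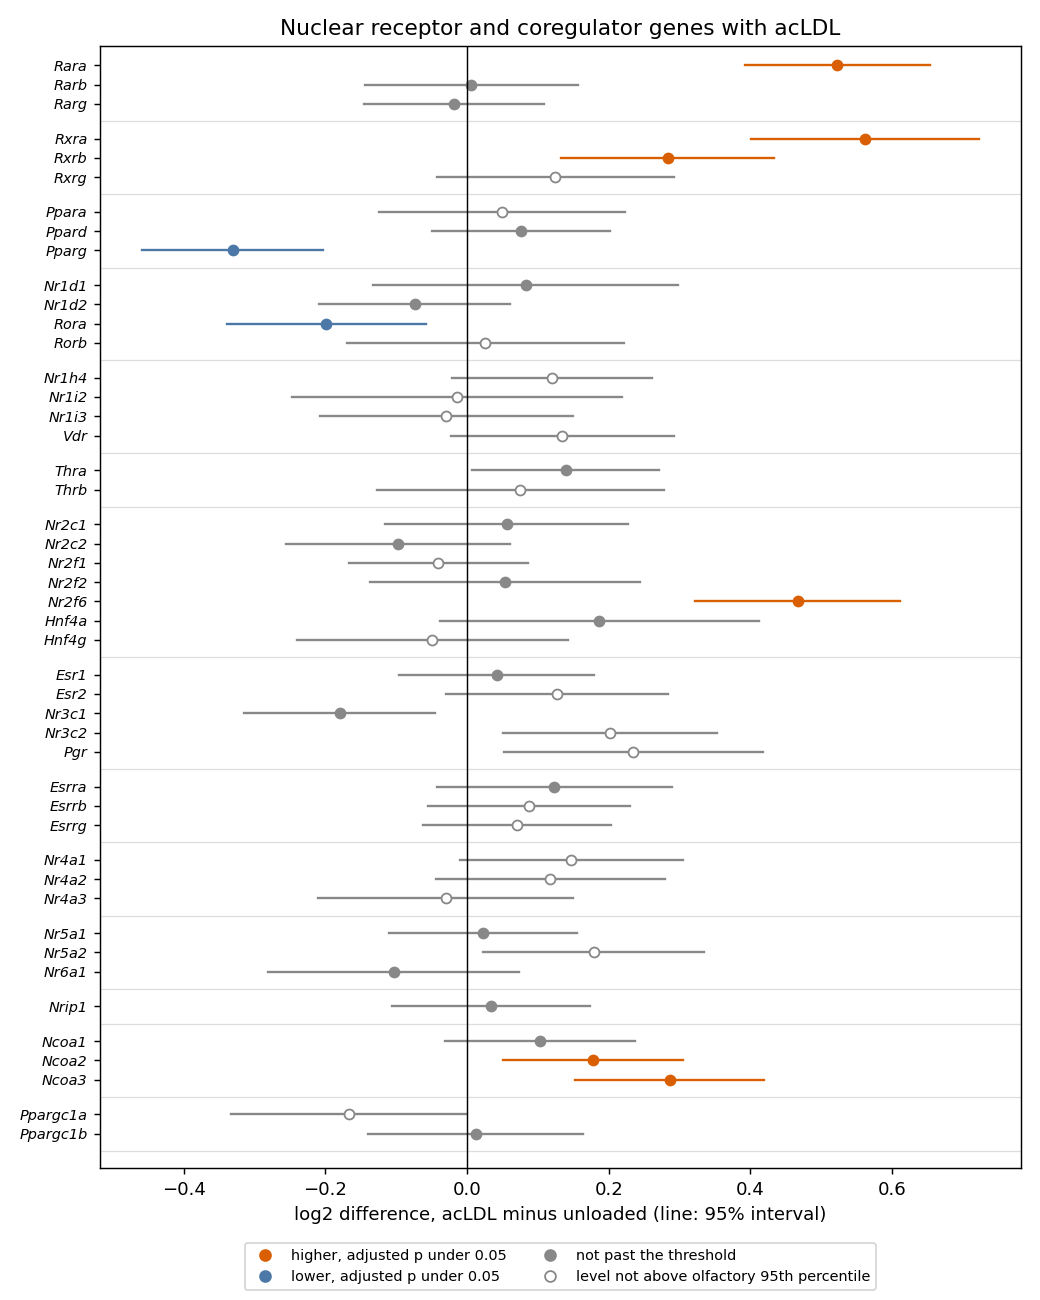
Log2 difference, acLDL minus unloaded, of the 46 measured genes by receptor family, with lines for the 95% interval of the limma fit (4 arrays per group). Filled points mark genes above the olfactory 95th percentile. The rises of Rara, Rxra and Nr2f6, at 0.52, 0.56 and 0.47, are the 3 largest.

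The retinoic acid receptors change gene expression in answer to all-trans retinoic acid, a derivative of vitamin A. Rara, encoding the alpha form, stood at 6.96, 7.01, 7.05 and 7.04 (log2) on unloaded arrays 1 to 4 and 7.46, 7.57, 7.51 and 7.61 on acLDL arrays 1 to 4. Every acLDL array lay above every unloaded array, and the gap between the groups was larger than the spread within either. The rise was 1.44-fold, a log2 difference of 0.52 ± 0.06 (log2, SE, limma adjusted p = 4.46e-05). The beta and gamma forms did not pass. Rarg had levels of 7.24 ± 0.03 without and 7.22 ± 0.06 with acLDL (log2, SD, n = 4) and a 95% interval of the difference from -0.15 to 0.11, and Rarb of 6.14 ± 0.04 without and 6.15 ± 0.13 with acLDL (log2, SD, n = 4) and an interval from -0.14 to 0.16. Both intervals lie below that of Rara, which ran from 0.39 to 0.65. Within each array the log2 value of Rara minus that of Rarg went from -0.22 ± 0.06 to 0.32 ± 0.02 (SD, n = 4), a shift of 0.54 (two-sided exact permutation p = 0.0286, the smallest that 4 arrays against 4 can give, and 0.0821 after Benjamini-Hochberg adjustment over 23 pairs of related genes).

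Retinoid X receptors are the shared partner in the pairs formed by many other receptors. Rxra was the gene with the largest difference of the 46. Its values were 8.16, 7.93, 7.88 and 7.82 (log2) on unloaded arrays 1 to 4 and 8.54, 8.53, 8.45 and 8.52 on acLDL arrays 1 to 4. Unloaded array 1 was the highest of its group, and the 4 acLDL arrays lay close together above it. The difference was 0.56 ± 0.07 (log2, SE, limma adjusted p = 0.000119), or 1.48-fold, and it stayed between 0.52 and 0.63 on leaving out single arrays. Rxrb read 8.02, 7.86, 7.79 and 7.89 (log2) on unloaded arrays 1 to 4 and 8.28, 8.12, 8.20 and 8.08 on acLDL arrays 1 to 4. The groups did not overlap, with a small gap between unloaded array 1 and acLDL array 4. Its rise of 0.28 ± 0.07 (log2, SE, limma adjusted p = 0.00960) was 1.22-fold. Without unloaded arrays 2 and 3 together the rise of Rxrb was 0.22 (limma adjusted p = 0.0658). The median log2 level of all genes was 6.44 and 6.45 on unloaded arrays 1 and 4, and 6.52 and 6.54 on arrays 2 and 3. It ran from 6.48 to 6.53 on acLDL arrays. The part of this split in the shifts of single genes, here and below, was not tested. Rxrg, the third form, was not above the background level, at 4.77 ± 0.14 without and 4.89 ± 0.08 with acLDL (log2, SD, n = 4), and did not pass. The within-array difference Rxra minus Rxrb shifted by 0.28 (exact permutation p = 0.0286, adjusted 0.0821).

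**Figure D2:**
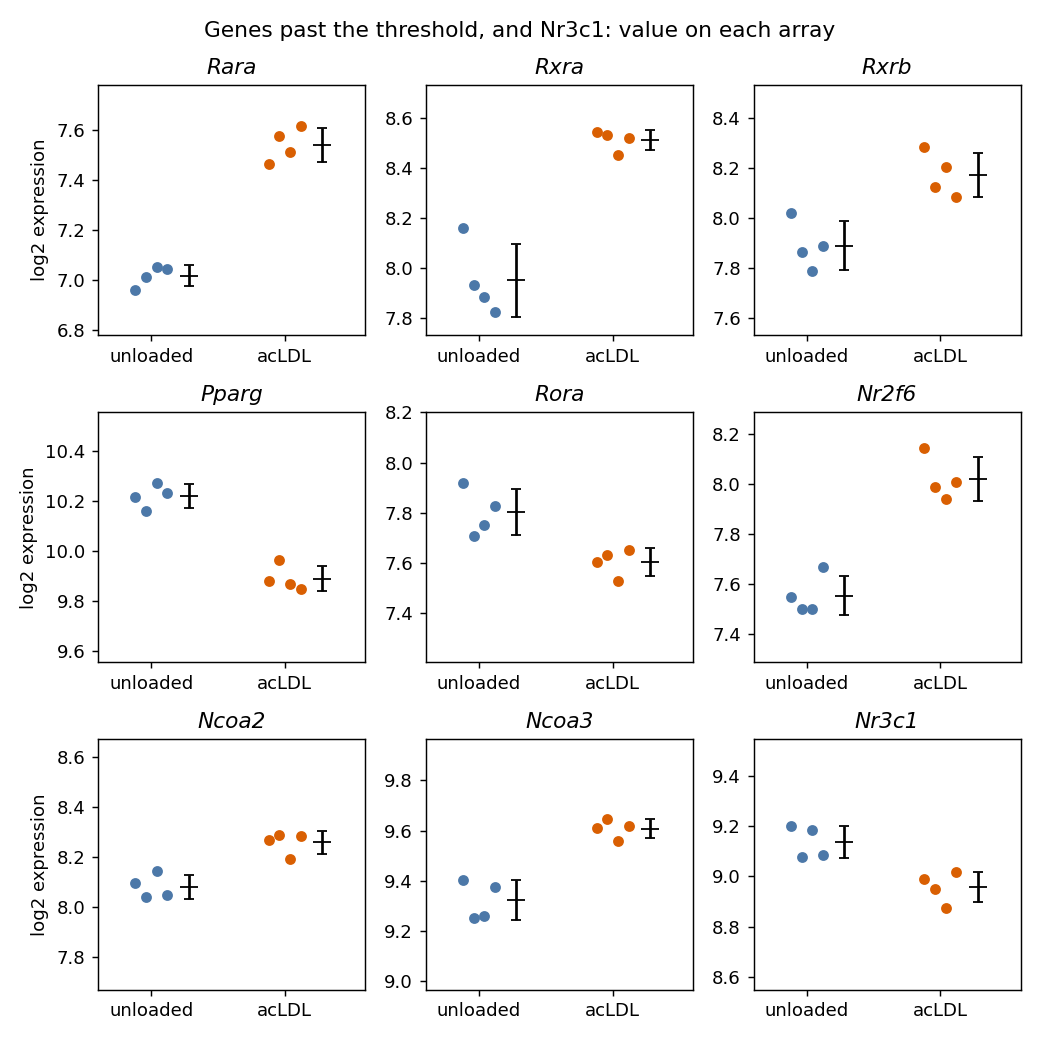
Log2 expression on each array for the 8 changed genes and Nr3c1, in unloaded (blue) and acLDL (orange) cells. Black bars are the mean ± SD of 4 arrays, and every panel spans 1 log2 unit. The groups do not overlap in any of the 9 panels, and the gap is widest in Rara, Rxra and Nr2f6.

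The sequences before the starts of the changed receptor genes are shown because the outermost windows of 5 of these 6 genes hold a motif, the GC box, that the choice of genes did not use. Counting all 13 annotated windows of the 6 genes, 9 hold it, and of the 7 inner ones 4. The outermost Rara window and the next one inward overlap over most of their length and hold the same 4 boxes. The windows counted are thus not independent. These counts are given as a description. They come from RefSeq on assembly GRCm38.p6 and run from 250 bases before to 50 after an annotated start. For genes with several annotated starts the outermost is shown, and for Rxra also an inner start. Capitals mark the hexamer AGGTCA, the core that many nuclear receptors bind, and the GC box GGGCGG, on either strand, so that TGACCT and CCGCCC are the same motifs read on the other strand.
Rara, chr11:98937446-98937745, plus strand: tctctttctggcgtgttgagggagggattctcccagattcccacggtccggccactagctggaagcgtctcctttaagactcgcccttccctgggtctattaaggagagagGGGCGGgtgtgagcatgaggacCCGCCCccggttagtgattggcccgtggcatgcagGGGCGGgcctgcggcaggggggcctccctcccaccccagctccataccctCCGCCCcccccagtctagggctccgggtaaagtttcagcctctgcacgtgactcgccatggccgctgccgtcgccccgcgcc
Rxra outermost start, chr2:27676951-27677250, plus strand: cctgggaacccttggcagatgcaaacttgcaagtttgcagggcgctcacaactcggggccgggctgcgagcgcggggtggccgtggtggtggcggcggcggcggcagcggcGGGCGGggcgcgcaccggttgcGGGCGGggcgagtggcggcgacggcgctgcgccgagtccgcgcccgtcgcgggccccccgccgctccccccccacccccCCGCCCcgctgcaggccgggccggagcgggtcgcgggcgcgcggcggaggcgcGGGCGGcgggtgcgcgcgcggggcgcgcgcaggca
Rxra inner start, chr2:27709042-27709341, plus strand: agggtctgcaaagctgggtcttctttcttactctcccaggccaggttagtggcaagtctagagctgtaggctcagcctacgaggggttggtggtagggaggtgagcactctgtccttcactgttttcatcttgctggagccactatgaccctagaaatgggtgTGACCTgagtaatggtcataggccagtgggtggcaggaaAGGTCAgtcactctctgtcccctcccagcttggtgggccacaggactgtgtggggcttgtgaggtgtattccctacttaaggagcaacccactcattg
Rxrb, chr17:34031562-34031861, plus strand: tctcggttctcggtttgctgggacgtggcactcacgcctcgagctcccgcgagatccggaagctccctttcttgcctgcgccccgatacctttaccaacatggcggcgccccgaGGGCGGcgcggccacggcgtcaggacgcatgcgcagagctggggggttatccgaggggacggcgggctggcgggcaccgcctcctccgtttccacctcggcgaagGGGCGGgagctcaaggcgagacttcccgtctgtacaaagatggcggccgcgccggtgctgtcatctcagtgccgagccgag
Nr2f6, chr8:71381903-71382202, minus strand: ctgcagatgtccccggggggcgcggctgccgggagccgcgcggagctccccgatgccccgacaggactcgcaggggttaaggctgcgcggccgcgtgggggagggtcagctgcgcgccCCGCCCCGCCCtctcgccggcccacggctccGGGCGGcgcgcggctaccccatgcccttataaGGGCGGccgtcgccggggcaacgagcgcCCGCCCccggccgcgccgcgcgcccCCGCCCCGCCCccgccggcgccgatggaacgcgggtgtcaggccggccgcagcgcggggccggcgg
Pparg, chr6:115360894-115361193, plus strand: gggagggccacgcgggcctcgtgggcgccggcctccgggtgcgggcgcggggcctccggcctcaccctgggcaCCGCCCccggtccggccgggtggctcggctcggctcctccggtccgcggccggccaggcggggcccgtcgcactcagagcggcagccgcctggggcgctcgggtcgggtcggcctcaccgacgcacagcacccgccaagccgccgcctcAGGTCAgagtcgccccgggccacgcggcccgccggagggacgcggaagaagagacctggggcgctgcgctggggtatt
Rora, chr9:68653536-68653835, plus strand: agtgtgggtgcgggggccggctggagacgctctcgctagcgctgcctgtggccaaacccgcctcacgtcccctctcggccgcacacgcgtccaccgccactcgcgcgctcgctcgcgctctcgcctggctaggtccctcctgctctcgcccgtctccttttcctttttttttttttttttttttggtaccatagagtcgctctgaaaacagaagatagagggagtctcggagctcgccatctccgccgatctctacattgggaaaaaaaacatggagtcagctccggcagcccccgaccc

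The GC box was found at the outermost start of Rara (4 matches), Rxra (4), Rxrb (2), Nr2f6 (7, some sharing letters) and Pparg (1), and not in the Rora window. It occurs in 35.7% of all 32851 start windows of this length and in 47.6% of the 63 windows of the listed genes. The window of Pparg, which fell, thus carries it as those of the receptors that rose do. Both shares count inner windows as well, and the 63 include the 13 of the changed genes. A share for outermost windows alone is not given. The box is made of G and C alone. The 5 windows with it held 66.3% (Rara), 83% (Rxra), 68.7% (Rxrb), 82.7% (Nr2f6) and 80.3% (Pparg) of these bases. The Rora window held 60.3%, and the median of all windows was 52.7%. What part base composition has in these matches was not tested. AGGTCA was found in 4 of the 13 windows, namely those shown for Pparg (1 match) and the inner Rxra start (2) and, not shown, an inner start of Rara (1) and of Pparg (1). At the inner Rxra start TGACCT and AGGTCA lie on opposite strands. The hexamer occurs in 16.3% of all windows and in 17.5% of the listed genes' windows. Direct repeats of AGGTCA spaced by 1, 4 or 5 bases (AGGTCANAGGTCA, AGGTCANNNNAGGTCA and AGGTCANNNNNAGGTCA), the arrangements bound by pairs with RXR, were found in 0 of the 63 windows and in 0.0396%, 0.0152% and 0.00913% of all windows. The E-box CACGTG was searched as well and occurred in 5 of the 63 windows (7.94%), against 7.15% of all windows. The Rara window shown holds 1, not set in capitals. The sterol regulatory element TCACNCCAC, also searched, occurred in 0 of the 63, against 1.24% of all windows. A match describes letters in a window, and the arrays do not tell which start was used.

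The PPARs are receptors for fatty acids and their derivatives. Pparg, encoding the gamma form that is prominent in fat cells and alternatively activated macrophages, was at 10.22, 10.16, 10.27 and 10.23 (log2) on unloaded arrays 1 to 4 and 9.88, 9.96, 9.87 and 9.85 on acLDL arrays 1 to 4. All 4 acLDL arrays were below all 4 unloaded arrays. It fell by 0.33 ± 0.06 on the log2 scale (SE, limma adjusted p = 0.00118), which is 1.26-fold lower. Ppard, the delta form, measured 7.65 ± 0.04 without and 7.72 ± 0.05 with acLDL (log2, SD, n = 4) and did not pass, with a 95% interval from -0.05 to 0.20. Ppara, the alpha form of fatty acid oxidation, was not above background, at 5.23 ± 0.10 without and 5.28 ± 0.15 with acLDL (log2, SD, n = 4). The within-array difference Ppard minus Pparg shifted by 0.41 (exact permutation p = 0.0286, adjusted 0.0821).

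The REV-ERB receptors (Nr1d1, Nr1d2) repress and the ROR receptors activate genes of the circadian clock through a shared DNA element. Rora, the alpha ROR, had values of 7.92, 7.71, 7.75 and 7.83 (log2) on unloaded arrays 1 to 4 and 7.60, 7.63, 7.53 and 7.65 on acLDL arrays 1 to 4. The acLDL arrays lay below the unloaded arrays with a narrow gap, between unloaded array 2 and acLDL array 4. It fell by 0.20 ± 0.07 (log2, SE, limma adjusted p = 0.0416). Leaving out single arrays, it passed in 2 of 8 fits. It was lost without unloaded array 1 (difference -0.16, adjusted p = 0.0972), unloaded array 4 (-0.19, 0.0908) or acLDL array 1 (-0.20, 0.0861), 2 (-0.21, 0.0709), 3 (-0.17, 0.114) or 4 (-0.22, 0.0597). Without unloaded arrays 1 and 4 together the difference was -0.13 (adjusted p = 0.201). Rora spans a long stretch of the genome, and with each array's trend with genomic span removed the difference was -0.21 (adjusted p = 0.0521). Nr1d1 and Nr1d2, at 6.66 ± 0.21 without and 6.74 ± 0.14 with acLDL (log2, SD, n = 4) and 8.72 ± 0.08 without and 8.64 ± 0.05 with acLDL (log2, SD, n = 4), did not pass, and Rorb was not above background (difference 0.03).

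**Figure D3:**
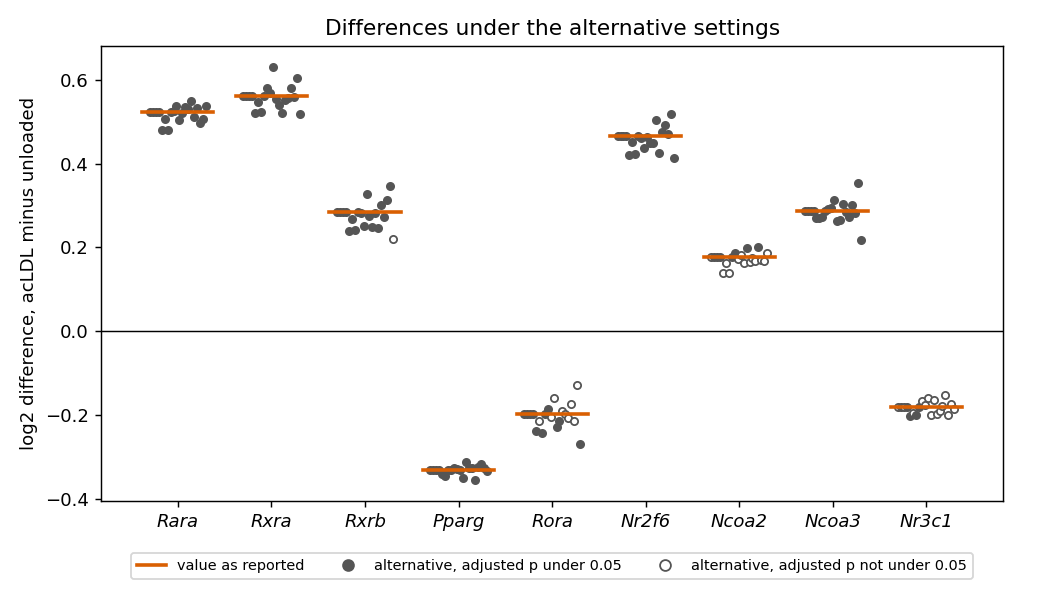
Log2 difference, acLDL minus unloaded, of the 8 changed genes and Nr3c1 as reported (orange lines) and under each of 20 alternative settings (points, filled where the limma adjusted p is under 0.05). Rara, Rxra, Nr2f6, Ncoa3 and Pparg pass in all 20, while Rora passes in 11, Ncoa2 in 7 and Nr3c1 in 5.

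Among the NR2 receptors, most of which have no settled ligand, Nr2f6 (EAR2, a relative of the COUP transcription factors) rose. It stood at 7.55, 7.50, 7.50 and 7.67 (log2) on unloaded arrays 1 to 4 and 8.15, 7.99, 7.94 and 8.01 on acLDL arrays 1 to 4. Unloaded array 4 and acLDL array 1 were the highest of their groups, and the groups lay well apart. The difference was 0.47 ± 0.07 (log2, SE, limma adjusted p = 0.000229), or 1.38-fold. Its relative Nr2f2 (COUP-TFII) had levels of 6.42 ± 0.12 without and 6.48 ± 0.17 with acLDL (log2, SD, n = 4) and did not pass (95% interval from -0.14 to 0.24). Nr2f1 (COUP-TFI) was not above background and differed by -0.04. The testicular receptors Nr2c1 and Nr2c2, above background at means of 7.56 and 8.30 over the 8 arrays, did not pass, with 95% intervals from -0.12 to 0.23 and from -0.26 to 0.06. Hnf4a, a receptor of liver and gut, differed by 0.19 ± 0.10 (log2, SE, limma adjusted p = 0.230), and Hnf4g, not above background, by -0.05.

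Steroid receptors did not pass. Nr3c1, the glucocorticoid receptor gene, read 9.20, 9.08, 9.19 and 9.09 (log2) on unloaded arrays 1 to 4 and 8.99, 8.95, 8.87 and 9.02 on acLDL arrays 1 to 4. The acLDL arrays were all below the unloaded arrays, yet the difference of -0.18 ± 0.06 (log2, SE) had a limma adjusted p of 0.0520, just over the threshold. It passed in 5 of the 20 alternative settings, among them repeated quantile normalization (adjusted p = 0.0226), and in 0 of the 8 in which an array was left out. Nr3c2, the mineralocorticoid receptor gene, was far below the background level, at 4.74 ± 0.13 without and 4.95 ± 0.02 with acLDL (log2, SD, n = 4), with groups that did not overlap. Its difference of 0.20 ± 0.07 (log2, SE) with a limma adjusted p of 0.0523 did not pass, though it passed without unloaded array 2 (0.24, 0.0392) or 3 (0.24, 0.0270). Without unloaded arrays 1 and 4 it was 0.09 (0.336). Pgr, the progesterone receptor gene, was also below it, at 5.29 ± 0.10 without and 5.52 ± 0.17 with acLDL (log2, SD, n = 4). Its difference was 0.23 ± 0.08 (log2, SE) with a limma adjusted p of 0.0616, and it passed without unloaded array 1 (0.28, 0.0370) or acLDL array 1 (0.30, 0.0235), and was 0.16 (0.187) without acLDL array 4. The oestrogen receptor genes differed by 0.04 ± 0.06 (log2, SE, limma adjusted p = 0.694) for Esr1 and by 0.13 ± 0.07 (log2, SE, limma adjusted p = 0.239) for Esr2. Esr1 had the same value to 3 decimals on 4 of the 8 arrays, as had Nr5a1.

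Receptors related to the oestrogen receptors gave no call. Esrra, which drives mitochondrial genes with the PGC-1 coactivators, was the gene of this trio above background and had levels of 7.93 ± 0.14 without and 8.05 ± 0.08 with acLDL (log2, SD, n = 4). The difference was 0.12 ± 0.08 (log2, SE) with a limma adjusted p of 0.285. Esrrb and Esrrg were not above it, with differences of 0.09 and 0.07 that did not pass. The thyroid hormone receptor gene Thra stood at 6.49 ± 0.08 without and 6.63 ± 0.01 with acLDL (log2, SD, n = 4), with groups that did not overlap. The difference was 0.14 ± 0.06 (log2, SE) with a limma adjusted p of 0.123. The 4 acLDL values of Thra lay between 6.62 and 6.64. Thrb was not above background and did not pass (0.08).

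Of the NR4A receptors, orphan receptors whose genes are known to answer quickly to inflammatory stimuli, 0 of 3 were above the background level and 0 passed. Their differences were 0.15 for Nr4a1, 0.12 for Nr4a2 and -0.03 for Nr4a3, with limma adjusted p from 0.174 to 0.838 and 0 of 3 under an unadjusted 0.05. The vitamin D receptor gene Vdr, the bile acid receptor gene Nr1h4 and the xenobiotic receptor genes Nr1i2 and Nr1i3 were likewise not above it and did not pass, with differences of 0.13, 0.12, -0.01 and -0.03. Vdr had levels of 5.72 ± 0.14 without and 5.86 ± 0.05 with acLDL (log2, SD, n = 4) and an interval of the difference from -0.02 to 0.29. Without unloaded arrays 2 and 3 together its difference was 0.25 (adjusted p = 0.0199) and that of Rxrg 0.25 (0.0341), while without unloaded arrays 1 and 4 they were 0.015 (0.889) and 0.0018 (0.989). In the NR5 and NR6 group, orphan receptors of steroid-forming tissue and germ cells, Nr5a1 (SF-1), Nr5a2 (LRH-1) and Nr6a1 (GCNF) did not pass, with differences of 0.02, 0.18 and -0.10.

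Coactivators of the p160 family bind the ligand domain of an active receptor and bring in histone acetyltransferases. Ncoa3 (SRC-3) showed 9.40, 9.25, 9.26 and 9.38 (log2) on unloaded arrays 1 to 4 and 9.61, 9.65, 9.56 and 9.62 on acLDL arrays 1 to 4. Unloaded arrays 1 and 4 were higher than 2 and 3, and all acLDL arrays lay above the 4 of them. The rise was 0.29 ± 0.06 (log2, SE, limma adjusted p = 0.00446), or 1.22-fold, and ranged from 0.22 without unloaded arrays 2 and 3 to 0.35 without unloaded arrays 1 and 4, both past the threshold. Ncoa2 (SRC-2) had values of 8.09, 8.04, 8.14 and 8.05 (log2) on unloaded arrays 1 to 4 and 8.27, 8.29, 8.19 and 8.28 on acLDL arrays 1 to 4. The groups did not overlap, and the gap between unloaded array 3 and acLDL array 3 was small. Its rise of 0.18 ± 0.06 (log2, SE, limma adjusted p = 0.0440) lost the call without unloaded array 1 (0.18, 0.0576), 2 (0.16, 0.100) or 4 (0.17, 0.101) or acLDL array 1 (0.17, 0.0955), 2 (0.17, 0.109) or 4 (0.17, 0.105), and after median centring (0.16, 0.122).

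Ncoa1 (SRC-1) had levels of 7.74 ± 0.06 without and 7.84 ± 0.07 with acLDL (log2, SD, n = 4) and did not pass, with a 95% interval from -0.03 to 0.24 that includes the value of Ncoa2. Within arrays Ncoa1 minus Ncoa3 shifted by -0.18 and Ncoa2 minus Ncoa3 by -0.11 (exact permutation p = 0.0286 each, adjusted 0.0821). Nrip1 (RIP140), a ligand-dependent corepressor, stood at 7.46 ± 0.05 without and 7.50 ± 0.09 with acLDL (log2, SD, n = 4), with a 95% interval of the difference from -0.11 to 0.17, and did not pass. The PGC-1 coactivators govern mitochondrial gene programmes with PPARs and ERRs. Ppargc1b did not pass, at 6.53 ± 0.10 without and 6.54 ± 0.08 with acLDL (log2, SD, n = 4). Ppargc1a was not above background, and its 2 probe sets differed. The brighter gave -0.17 ± 0.08 (log2, SE, limma adjusted p = 0.142). The dimmer, with a mean of 3.74 over the 8 arrays, gave -0.39 ± 0.07 (adjusted p = 0.00148 over all annotated probe sets). Without unloaded array 3 the brighter probe set gave -0.22 (adjusted p = 0.0453), and without unloaded array 2 it gave -0.12 (0.329).

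Of related genes above the background level, 23 pairs were compared by their difference within each array. The smallest possible exact permutation p, 0.0286, was reached by 8 pairs and became 0.0821 after adjustment over the 23. A pair could pass after adjustment only if many others reached that p too, and some pairs share a gene. That 0 pairs passed thus does not tell whether a pair shifted. Besides those given above, the pairs at that p were Rara minus Rarb, with a shift of 0.52, Nr2c1 minus Nr2f6 (-0.41) and Nr2c2 minus Nr2f6 (-0.56). Nr2f2 minus Nr2f6 shifted by as much, -0.41, and had an exact p of 0.0571 (adjusted 0.119), with SDs of 0.20 and 0.18 in the groups.

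Genes that work with these receptors were followed in 11 lists, of which 137 distinct genes were measured. Of these 28 rose and 16 fell, 32.1% in all, beside 23.3% of all genes tested. Of the 137, 115 lay above the background level, where 33.5% of all genes changed, so the share is near that background. In the single lists below, that share applies to the genes above the level. Of all genes not above it, 8.94% changed. Genes above it were 1 of 4 other nuclear receptors, 11 of 17 retinoid, 6 of 9 thyroid hormone and 3 of 7 vitamin D genes. Among 4 other nuclear receptor genes measured, Nr1h3, encoding the liver X receptor alpha, rose by 0.66 ± 0.07 (log2, SE, limma adjusted p = 3.01e-05). The other 3 were not above the background level and did not pass. In the list of other coregulators 7 rose and 4 fell of 20 (55%), all of them above the background level, with a median log2 difference of 0.04. Tbl1x, a subunit of the NCOR corepressor complexes, rose by 0.60 ± 0.07 (log2, SE, limma adjusted p = 4.92e-05). Carm1, an arginine methyltransferase that joins the p160 coactivators, rose by 0.46, and Sirt1, a deacetylase, fell by 0.42 on the log2 scale.

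Retinoid genes went both ways. In the list of retinoid metabolism and response 3 of 17 rose and 2 fell (29.4%), and the median was 0.01. Rdh11, a retinol dehydrogenase, fell by 0.53 ± 0.08 (log2, SE, limma adjusted p = 0.000311), while Tgm2, the transglutaminase gene known as a retinoid target, rose by 0.32 from 9.35 ± 0.17 to 9.67 ± 0.07 (log2, SD, n = 4). Tgm2 did not pass without unloaded arrays 2 and 3 (0.18, adjusted p = 0.0941). Crabp1, a retinoic acid binding protein, rose by 0.30 with overlapping groups, and its call was lost without unloaded array 1, 2 or 4 or acLDL array 3 or 4 (adjusted p from 0.0504 to 0.0866). The retinoic acid hydroxylase genes Cyp26a1, Cyp26b1 and Cyp26c1, named once their values had been seen, did not pass, with differences of 0.07, 0.01 and 0.16. Of 11 PPAR targets 3 rose and 1 fell (36.4%, median 0.09). Ech1 and Acaa2, enzymes of fatty acid oxidation, rose by 0.33 and 0.28, and Lpl, the lipoprotein lipase gene, by 0.33. Without unloaded arrays 2 and 3 Acaa2 did not pass (0.22, adjusted p = 0.0579).

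Glucocorticoid targets also split, with 2 higher, 2 lower and 10 of 14 not passing (28.6% changed, median -0.08). Tsc22d3, encoding the glucocorticoid-induced leucine zipper, went from 7.82 ± 0.21 to 7.37 ± 0.11 (log2, SD, n = 4), a fall with a limma adjusted p of 0.00403. The metallothionein gene Mt1 and the NF-kB inhibitor gene Nfkbia rose by 0.49 and 0.42. Sgk1, named once its value had been seen, was the other gene that fell, by 0.34 on the log2 scale. Genes of this list can answer to other signals too. Of 9 chaperones of the steroid receptors 3 rose and 0 fell (33.3%, median 0.12). Bag1 and Stub1, which link the chaperone HSP70 to protein turnover, rose by 0.48 and 0.41, and Stip1, which joins HSP70 to HSP90, by 0.19. The call on Stip1 was lost without unloaded array 2, 3 or 4 or acLDL array 1, 3 or 4 (adjusted p from 0.0572 to 0.0967).

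Clock partners of the REV-ERB and ROR receptors mostly did not pass. Of 16 measured 0 rose and 2 fell, 12.5%, with a median of -0.06. Bhlhe40 and Bhlhe41 (DEC1 and DEC2), repressors of the clock, fell by 0.42 and 0.29 on the log2 scale (limma adjusted p = 0.000291 and 0.00370). Arntl (BMAL1), a gene that RORs activate and REV-ERBs repress, named once its value had been seen, differed by -0.21 (adjusted p = 0.0511) and did not pass. Of 18 immediate early genes, which share fast induction with the NR4A receptors, 3 rose and 3 fell (33.3%, median 0.04). Fos and Junb rose by 0.60 and 0.48 and Jun fell by 0.47.

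Thyroid hormone genes held the largest difference of all 11 lists. Dio2, whose enzyme converts thyroxine to the active hormone, stood at 9.94, 9.89, 9.84 and 9.79 (log2) on unloaded arrays 1 to 4 and 9.11, 9.11, 8.997 and 9.12 on acLDL arrays 1 to 4. All acLDL arrays lay below all unloaded arrays. The difference was -0.78 ± 0.06 (log2, SE, limma adjusted p = 2.05e-06), or 1.72-fold lower. Dio3, whose enzyme inactivates the hormone, rose by 0.36 with overlapping groups from a level below background. Its call was lost without unloaded array 1, 3 or 4 or acLDL array 1, 3 or 4 (adjusted p from 0.0547 to 0.103). The other 7 of 9 genes did not pass (median of the list -0.02). Of 7 vitamin D genes 0 passed in limma and 0 had an unadjusted p under 0.05 (median -0.01). The smallest p belonged to Trpv6, a calcium channel gene (limma adjusted p = 0.218). Of the 7, 4 were not above the background level, Trpv6 among them. Of 16 genes of mitochondrial biogenesis, a programme of the PGC-1 coactivators and Esrra, 5 rose and 1 fell (37.5%, median 0.06), all 16 being above the background level, where 33.5% changed. Sdhb, Cs and Cycs, encoding a succinate dehydrogenase subunit, citrate synthase and cytochrome c, rose by 0.51, 0.41 and 0.34. Cycs did not pass when its probe sets were averaged (0.17, adjusted p = 0.202) or without unloaded arrays 2 and 3 (0.23, 0.0940).

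**Figure D4:**
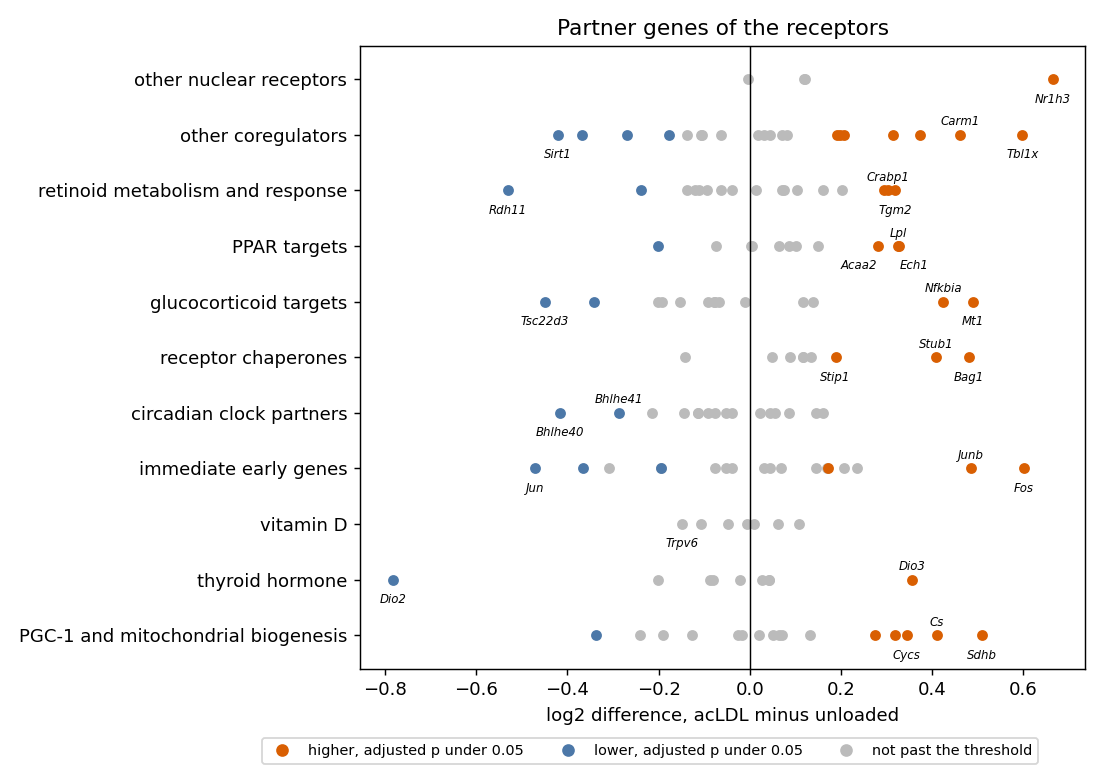
Log2 difference, acLDL minus unloaded, of the 137 measured partner genes in 11 lists (each point a gene, colours give the limma call, some genes stand in more than 1 list). Named points are the up to 3 largest called changes of a list, or the gene with the smallest p (Trpv6). Dio2 lies farthest to the left, at -0.78, and Nr1h3 farthest to the right, at 0.66.

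The cultures carried markers of macrophages and of fibroblasts, and some of the mesothelial markers. All 7 macrophage markers were above the background level, 4 rose (Adgre1, Fcgr1, Itgam and Mertk) and 0 fell, so that 57.1% changed. Of all genes above that level 33.5% changed, 19.6% higher and 13.9% lower. Csf1r, Lyz2 and Cd68 did not pass, with log2 differences of -0.002, 0.06 and -0.09. Of 8 fibroblast and mesothelial markers 6 were above background, and their mean log2 level ran from 7.99 to 8.12 on unloaded and from 7.92 to 8.05 on acLDL arrays. Of the 8, Col1a2 fell by 0.37 and 0 rose, so that 12.5% changed. The defining collagen and Pdgfra genes were well above background, at 9.18 to 9.69 over the 8 arrays. Of the mesothelial markers, Wt1 and Upk3b lay above background, at 7.51 and 6.65. Msln and Krt19 did not, at 6.04 and 6.02. Of the 6 lists of neutrophil, lymphoid, mast cell and eosinophil, endothelial and dendritic cell markers, 0 to 1 member lay above background. Siglecf, listed for eosinophils, fell by 0.60, and its level of 7.97 in unloaded cells was above background while Epx and Prg2 were not. The part of these other cells in the differences of the receptor genes was not tested. Over all genes, Pearson's correlation of array pairs ran from 0.994 to 0.997 inside a group and from 0.989 to 0.991 across groups.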

How the data were processed

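Each of 8 RNA samples was hybridised, after biotin labelling, to its own Affymetrix array, per the labels' protocols. The deposited values are log2 expression per probe set, made by the authors with RMA (version not given in the sources used here) per the submitters' processing notes. This method aligns the distributions of arrays, which hides a change shared by all genes, and compresses differences of dim genes. Of 35557 probe sets, 23410 were annotated and 21789 had 1 gene symbol. The probe set with the highest mean stood for a gene with several, giving 19938 genes, and 0 of the listed genes needed a probe set shared with another gene. Differences, acLDL minus unloaded, were tested over all 19938 genes with the two-sided moderated test of limma (version 3.58.1, R 4.3.3, lmFit then eBayes) without a block. Benjamini-Hochberg adjustment and a threshold of 0.05 were used. On simulated arrays this step recovered 24% of 50 changes of 1.2-fold and 90% of 50 of 1.5-fold. The simulation gave 162 calls and the data 4650, so these rates need not carry over. A gene that did not pass may still differ by a small amount. Of the 48 listed genes, 41 had start windows in the RefSeq table. The genes, the partner lists and the tests were chosen with earlier results of these data known. Every gene of the family is accounted for, full values are given for those that passed above the olfactory 95th percentile, and up to 3 genes of each partner list with the largest called change are named (or the gene with the smallest p). Nr3c1 and Dio2 were also given array by array. Alternatives covered block, probe sets, filter, normalization, prior, array weights, genomic span and left-out arrays. The small number of arrays limits precision.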

Additional observations from a re-analysis of the deposited data

Results flagged for a closer look

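In groups of 4 arrays, a value whose gap to its nearest neighbour took up more of the group's range than Dixon's 95% limit allows was marked. Of 146 groups of values examined, 7 held such an array, and chance marks about 1 in 20. Ppard on acLDL array 2 was 7.65, below the 7.74 to 7.75 of the other arrays of its group. Nr1i2 on acLDL array 3 was 5.05, below 5.30 to 5.33. Nr1i3 on unloaded array 3 was 6.28, above 5.90 to 5.97. Thra on unloaded array 4 was 6.61, above 6.44 to 6.46 and near the acLDL arrays. Nr2f1 on acLDL array 3 was 5.27, below 5.32 to 5.33. Nr5a1 on acLDL array 4 was 6.33, above the 6.22 of each of the other 3 acLDL arrays. Dio2 on acLDL array 3 was 8.997, below 9.11 to 9.12. All values are log2 levels, and causes were not tested.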

How the results depend on the processing

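The number of genes of the family past the threshold was 8 as reported and 6 to 10 over the 20 alternatives, also from 6 to 10 on leaving out single arrays. On leaving out single arrays, 5 to 7 genes rose and 1 to 3 fell. One gene fell, in place of 2, under median centring (1), removal of the span trend (1) and without unloaded arrays 1 and 4 (1), in each case because Rora lost its call. The median log2 difference of the 46 genes ran from 0.06 to 0.10 with an array left out and from 0.02 to 0.12 over all alternatives. The count of changed partner genes, 44 as reported, ran from 36 to 51. None of the called differences of the 46 genes and of the partner genes named by rule changed direction in any of the 20 alternatives. Rara, Rxra, Pparg, Nr2f6 and Ncoa3 passed in all of them. With the replicate number as a block 7 genes passed, Ncoa2 being lost (adjusted p = 0.0680), and the blocked count over all genes was 4860 against 4650. Deviations of equally numbered arrays correlated at 0.11, -0.16, 0.30 and 0.14, so the numbers were not taken to pair the samples. Among genes that did not pass as reported, Nr3c1, Nr3c2, Nr5a2, Pgr, Ppargc1a, Rxrg and Vdr passed in at least 1 alternative, and of these Nr3c1 alone lies above the olfactory 95th percentile. Nr5a2 passed after repeated quantile normalization (0.21, adjusted p = 0.0228) and cyclic loess (0.21, 0.0274). Signal near background limits what can be said of the 20 dim genes.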
